A study of Mus musculus with 13 samples.

Results

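The proliferin genes Prl2c2, Prl2c3, Prl2c4 and Prl2c5 encode prolactin-like secreted hormones of the mouse, and the binding of the glucocorticoid receptor (GR) around them was taken from deposited chromatin immunoprecipitation sequencing (ChIP-seq) peaks. A peak was counted for a gene when the authors' annotation gave that gene's symbol. This rule gave 60 of the 26052 peaks in all lists, 56 of them among the 24673 peaks of the dexamethasone and lipopolysaccharide lists. The genes were chosen by their peaks in these same lists, with the numbers of peaks already known. Those numbers are therefore a description, and no conclusion is drawn from a test of them.

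The cells were mouse embryonic fibroblasts from male C57BL/6 embryos at embryonic day 13.5, without head and inner organs, cultured for 7 days. Their genotypes were GR wt / wt, GR Zn / Zn (an altered zinc finger in the part of the receptor that binds DNA, called mutant here) and GRKO/KO (knockout). Cells of 9 libraries (3 wild-type, 4 mutant, 2 knockout) had received 1 µM dexamethasone (Dex, a synthetic glucocorticoid) in ethanol for 16 h and 100 ng/µl lipopolysaccharide (LPS, a bacterial trigger of inflammatory signalling), a dose as the labels give it, for 3 h. Cells of 4 further libraries (2 wild-type and 2 mutant) had received 1 µM Dex for 16 h without LPS. The labels give no transgene, no clone and no pooling. Whether the libraries came from separate cultures is given only as biological replicates in the design text for the Dex+LPS cells.

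Proliferins are known as products of placental trophoblast giant cells and of growing fibroblasts, where serum and growth factors raise their transcription, and the secreted protein promotes blood vessel growth. The proliferin promoter region is a textbook example of a composite element, a stretch of DNA at which GR and AP-1 (dimers of Fos and Jun proteins) act together. At that element the make-up of AP-1 is known to set whether the hormone raises or lowers transcription. The zinc fingers of GR hold its contacts with DNA, and GR is also known to associate with DNA-bound AP-1 through protein contacts.

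In the gene table used here (RefSeq, GRCm38.p6, the same assembly as mm10), 3 of the 4 symbols are separate protein-coding genes on chromosome 13. Prl2c3 lies at 12790816 to 12800093, Prl2c2 at 12996120 to 13005393 and Prl2c5 at 13182703 to 13191930. Prl2c4 is listed there as a synonym of Prl2c3, and no peak carried the symbol Prl2c4 or Prl2c5. All 60 peaks were therefore assigned to Prl2c2 or Prl2c3. Both are on the minus strand, so sequence upstream of their starts has higher coordinates.

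To show how alike copies of the family can be, the 250 bases before a transcript start are printed for Prl2c3 (chr13:12800080-12800329, minus strand) and Prl2c5 (chr13:13182466-13182715, plus strand), both from RefSeq GRCm38.p6 and written 5′ to 3′. The transcript starts are those of the promoter table, and the gene bounds given above reach a few bases into each window. Prl2c2 had no entry, so Prl2c2 and Prl2c3 were not compared. Capitals mark the AP-1 letters TGANTCA where they were found on either strand.
Prl2c3: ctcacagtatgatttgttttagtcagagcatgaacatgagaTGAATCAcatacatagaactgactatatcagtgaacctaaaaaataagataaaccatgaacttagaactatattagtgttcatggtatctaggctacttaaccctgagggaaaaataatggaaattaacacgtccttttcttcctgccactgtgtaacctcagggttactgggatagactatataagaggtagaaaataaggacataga
Prl2c5: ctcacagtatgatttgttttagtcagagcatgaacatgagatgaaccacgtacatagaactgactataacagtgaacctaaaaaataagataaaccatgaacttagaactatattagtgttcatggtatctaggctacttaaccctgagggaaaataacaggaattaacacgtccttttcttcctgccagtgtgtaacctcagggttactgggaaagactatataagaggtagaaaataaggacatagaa
The windows matched at 241 of 251 aligned columns (96.0%), with 8 substitutions and 2 gap columns. The AP-1 letters stood once in Prl2c3, at bases 42 to 48 of the window, counted from 1 at its 5′ end. The substitution T46C, the Prl2c3 base first and the Prl2c5 base last, falls within them, and Prl2c5 had no match. Of 32851 windows of the same length before all listed gene starts, 6.75% hold TGANTCA. Neither proliferin window held the GR core palindrome ACANNNTGT (5.84% of all windows), the GR hexamer AGAACA (16.1%), the CRE-type AP-1 letters TGACGTCA (1.55%), the NF-kB letters GGGACTTTC (0.289%) or GGGANTTCC (1.43%), or the STAT letters TTCNNNGAA (7.02%). A palindrome such as ACANNNTGT reads the same on both strands. Only these exact letters were searched here, so a binding site with other letters would be missed. The windows were thus not tested for the presence of a composite element. No peak of any list overlapped either window. The closest to the Prl2c3 window was a mutant-specific peak that began 138 bp beyond its upstream end. The labels do not say how reads that match several copies were placed, so the assignment of a peak to 1 copy of this family is uncertain.

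Under Dex+LPS both genotypes had dense GR binding around Prl2c3 and Prl2c2, with fewer peaks in the mutant. Wild-type cells had 37 peaks (29 wild-type-specific and 8 shared) and mutant cells 27 (19 mutant-specific and 8 shared), so the wild-type list held 1.37 times as many peaks here. Over all genes it held 3.93 times as many. The 2 genotypes are 1 merged list each, with 3 wild-type against 4 mutant libraries, knockout peaks removed by the authors and read depth unknown. They have no spread between replicates, and no test across samples was possible.

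At Prl2c3 14 peaks were specific to the mutant, 3 were shared and 15 were specific to the wild type. At Prl2c2, also listed as Plf, 5 were specific to the mutant, 5 shared and 14 specific to the wild type. The genes thus had similar numbers of wild-type-specific peaks, and 14 of the 19 mutant-specific peaks went to Prl2c3. For orientation, 15.4% of the 49997 genes of the table had at least 1 wild-type-specific peak, while 4.75% had a shared one and 2.72% a mutant-specific one. The table also holds pseudogenes and other non-coding genes, so shares over all its genes are not matched to lists of protein-coding genes. As many mutant-specific peaks as Prl2c3 or more were assigned to 0.00600% of genes, and as many as Prl2c2 or more to 0.104%. For shared peaks these shares were 0.474% and 0.0980%, and for wild-type-specific peaks 0.0840% and 0.114%. Since the genes were chosen with these lists known, nothing is read from those shares.

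**Figure D1:**
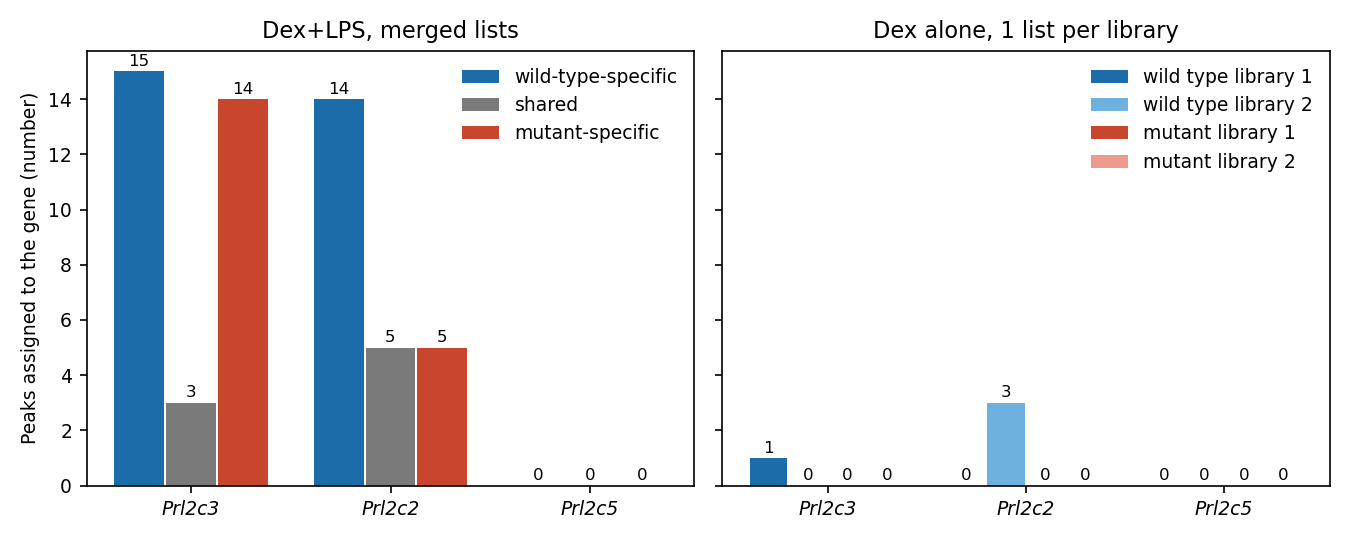
Number of peaks assigned to each proliferin gene (vertical axis) in the merged Dex+LPS lists (left, 1 bar per class) and in the 4 Dex libraries (right, 1 bar per library), without error bars because each bar is a single list. Prl2c3 had 15 wild-type-specific and 14 mutant-specific peaks, Prl2c2 had 14 and 5, and Prl2c5 had none.

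Most mutant peaks at the proliferin genes were mutant-specific. They made up 19 of 27 peaks (70.4%), 14 of 17 at Prl2c3 (82.4%) and 5 of 10 at Prl2c2 (50%). For scale, the share was 38.1% of the 5693 mutant peaks at all other genes and 35.8% of 452 at other genes on chromosome 13. From the wild-type side, 8 of 37 peaks were shared (21.6%), where 15.7% were shared at all other genes and 19.5% at other genes on chromosome 13. Peaks of 1 locus are not independent and the genes were chosen from these lists, so the shares were not tested against each other.

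The 56 Dex+LPS peaks lay in 1 run of 260.1 kb, from 12739543 to 12999621. The peaks followed each other with a median gap of 2319 bp. Between the gene bodies, 196.0 kb held 15 peaks specific to the mutant, 7 shared and 21 specific to the wild type. Inside Prl2c3 there were 4 wild-type-specific and 1 mutant-specific peak, and inside Prl2c2 2 wild-type-specific peaks. On the 3′ side of Prl2c3 lay 3 peaks specific to the mutant, 1 shared and 2 specific to the wild type. None of the 56 peaks overlapped a gene start, and only 582 of all 24673 Dex+LPS peaks did. In all, 7 of the 56 peaks (12.5%) lay inside a gene body, against 47.0% of all Dex+LPS peaks, and their distances to the gene start had a median of 50.9 kb against 39.8 kb. The annotation followed the nearer gene body, and the midpoint between the 2 bodies is 12898101, so the split of the intergenic peaks between the genes follows distance.

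**Figure D2:**
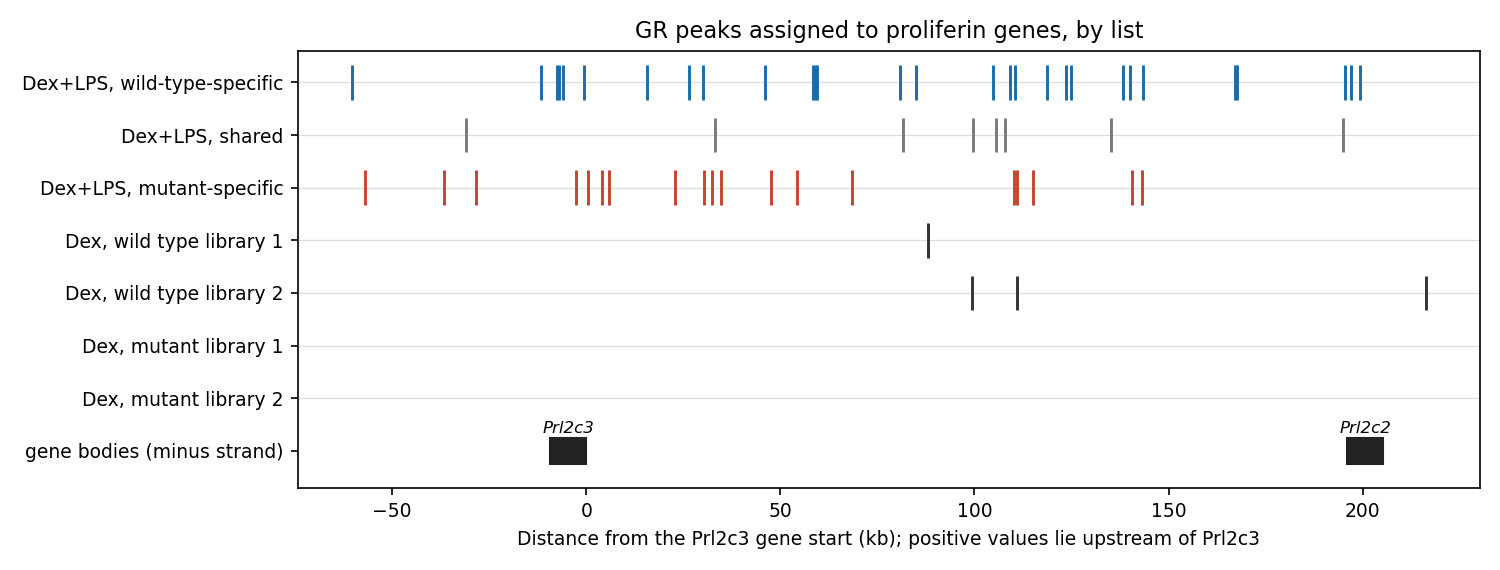
Position of each peak (vertical ticks, to scale) along the proliferin locus by list (rows), as distance in kb from the Prl2c3 gene start, with the 2 gene bodies as boxes. Mutant-specific peaks lie on both sides of Prl2c3, with 1 inside it, and end before Prl2c2, while wild-type-specific peaks run on into Prl2c2.

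Near the start of Prl2c3 the genotypes had separate peaks. A mutant-specific peak (12800468 to 12800667) lay 489 bp upstream of the start by the authors' distance, and the wild-type-specific peak nearest to the start (12799372 to 12799571) lay inside the gene, 607 bp from it. The only mutant-specific peak inside the gene (12797246 to 12797445) was 2733 bp from the start. The 3 other wild-type-specific peaks inside it were 5981, 7135 and 7573 bp from the start. Farther upstream, mutant-specific peaks followed at 4043 and 5895 bp, and the first wild-type-specific one only at 15657 bp. The 68.2 kb from the first to the last upstream mutant-specific peak of Prl2c3 (12800468 to 12868634) held 10 mutant-specific, 7 wild-type-specific and 1 shared peak.

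Around Prl2c2 the order of the genotypes was different. No mutant-specific peak was found in the last 56.4 kb of the run (12943261 to 12999621), which held 6 wild-type-specific peaks and 1 shared peak. The wild-type-specific peaks inside Prl2c2 lay 8266 and 5808 bp from its start. The latter (12999422 to 12999621) stood at nearly the same place in the gene as a wild-type-specific peak of Prl2c3 (12793998 to 12794197), 5981 bp from that start, a difference of 173 bp. The other wild-type-specific peak inside Prl2c2 differed by 693 bp from its closest counterpart at Prl2c3, and the 2 peaks just past the 3′ end of Prl2c2 by 1405 and 2023 bp. The shared peak closest to either gene (12994911 to 12995110) lay past the 3′ end of Prl2c2, 10320 bp from its start. In the 90 kb upstream of Prl2c2 there was no Dex+LPS peak of any class, while the same distance upstream of Prl2c3 held 10 specific to the mutant, 2 shared and 9 specific to the wild type. After the run, the next Dex+LPS peak came 437.6 kb on, at Nid1, a basement membrane gene, and Prl2c5 lay inside that gap. The nearest peaks to Prl2c5 were 183.1 kb (wild-type-specific), 187.6 kb (shared) and 239.4 kb (mutant-specific) away. The placement of reads that match several copies is unknown, and its part in the absence of peaks here was not tested.

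The first of the densest stretches of 10 kb lay midway between the genes. There, 6.51 kb (12904702 to 12911207) held 2 peaks specific to the mutant, 2 shared and 3 specific to the wild type. The peaks of that stretch were assigned to Prl2c2, whose start was 94222 to 100528 bp away. No gene body of the table covered them. An overlapping stretch from 12905451 to 12915256 held as many peaks, with a mutant-specific one at 12915057 in place of a wild-type-specific one at 12904702. Of all 56 peaks, a pseudogene covered 2, namely Gm2544 a mutant-specific and Gm18878 a wild-type-specific peak.

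Peaks called specific to the mutant often had a wild-type peak close by. The gap from a mutant-specific peak to the nearest wild-type peak (wild-type-specific or shared) had a median of 1.93 kb at the proliferin genes and a maximum of 8744 bp. Over all 2187 mutant-specific peaks the median was 7.54 kb. Within 500 bp lay 5 of the 19 (26.3%), against 10.4% of all mutant-specific peaks, and within 5 kb 16 of the 19 (84.2%), against 44.5%. The closest pair was a mutant-specific peak (12910122 to 12910321) with a wild-type-specific peak (12910373 to 12910572) 51 bp further on. The other 4 were 166, 220, 233 and 435 bp from a wild-type-specific peak. All Dex+LPS peaks in the lists have the same width of 200 bp, so neighbours at this distance were entered as different sites by their positions alone. For the 29 wild-type-specific peaks the median gap to the nearest mutant peak was 3.25 kb, against 106.98 kb over all wild-type-specific peaks. Gaps are short wherever peaks are dense, as they were here, and the part of density in these values was not tested.

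**Figure D3:**
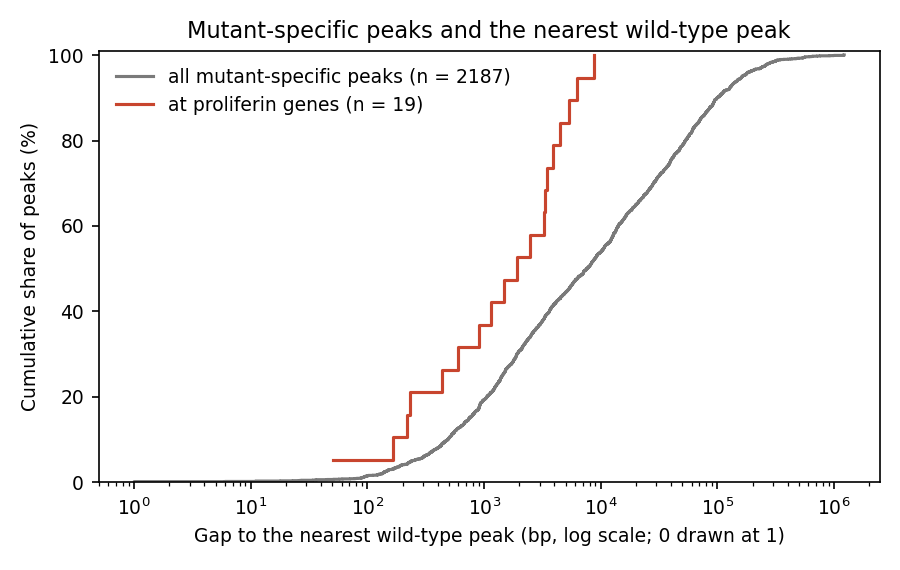
Cumulative share of mutant-specific Dex+LPS peaks (vertical axis, %) by the gap in bp to the nearest wild-type peak (horizontal, log scale), for the 19 peaks at proliferin genes and all 2187. At proliferin genes 84.2% lay within 5 kb, against 44.5% of all.

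The density can be set beside the rest of the genome in bins of 500 kb. The bin that holds the run (12500001 to 13000000) had 19 mutant-specific peaks, a number reached by 3 of 5455 bins including this one (0.0550%), and the highest bin had 32. It had 32 wild-type-specific peaks, 3 of which were assigned to the neighbouring Gpr137b-ps, a number reached by 3 bins (0.0550%). Its 8 shared peaks were reached by 22 bins (0.403%). These shares repeat the lists by which the genes were chosen and are given for scale only.

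**Figure D4:**
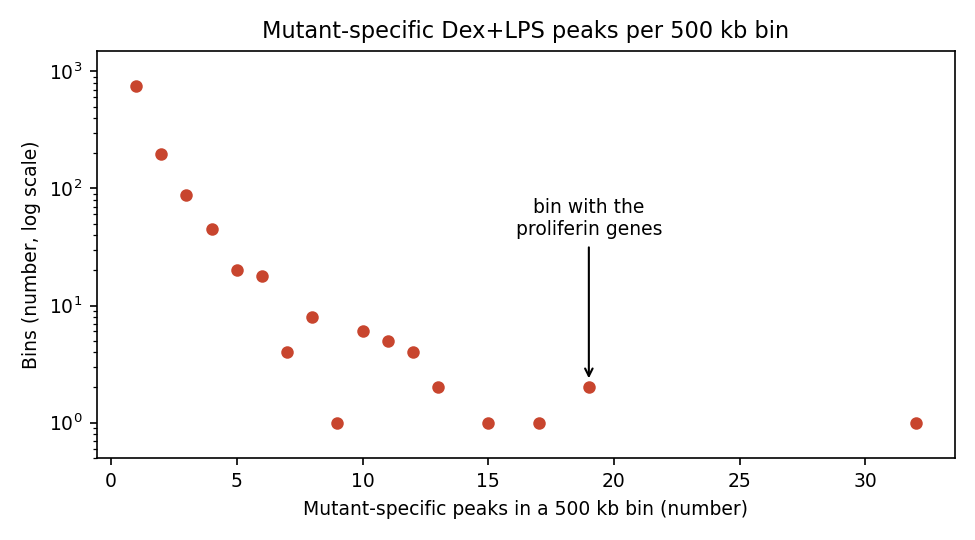
Number of 500 kb bins (vertical axis, log scale) by the number of mutant-specific Dex+LPS peaks in the bin (horizontal axis), for bins with at least 1 such peak. The bin with the proliferin genes had 19, and 1 bin had more.

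Under Dex alone the proliferin genes had peaks in wild-type libraries and none in mutant libraries. Wild-type library 1 had 1 peak, assigned to Prl2c3. Wild-type library 2 had 3 peaks, assigned to Prl2c2. Both mutant libraries had 0. The mean was 2.0 ± 1.41 (SD, n = 2) in wild-type and 0 in mutant libraries, a difference of 2.0 peaks (exact permutation test over libraries, two-sided, p = 0.333, the smallest that 2 against 2 allows). The labels name no separate culture for each of these libraries, and the p measures only the spread between them, which can be technical. The genes were chosen with these lists known and the p could not be smaller, so no conclusion is drawn from it. At least 1 peak was assigned to 0.600% and 1.03% of genes in the wild-type and to 0.0820% and 0.100% in the mutant libraries. The mutant lists had only 53 and 60 peaks, so a count of 0 allows a share of up to 5.66% and 5% of peaks. Each limit was taken as 3 peaks of the list. The share in the mutant Dex+LPS list, 0.472%, is far below those limits. A count of 0 in lists this short thus cannot tell such a share from none. Why the mutant Dex lists are short was not tested. In wild-type cells the share was 0.243% and 0.351% of the Dex peaks and 0.165% of the Dex+LPS peaks, lists that were made in different ways. Chromosome 13 carried 11.9% and 14.9% of the wild-type Dex peaks, 5.7% and 0% of the mutant Dex peaks and makes up 4.4% of the summed chromosome lengths, each taken to its last gene in the table. Under Dex+LPS it carried 8.3% of the mutant-specific, 8.4% of the shared and 6.5% of the wild-type-specific peaks. The proliferin genes held 1 of the 49 and 3 of the 127 chromosome 13 peaks of the wild-type Dex libraries. Under Dex+LPS they held 10.5% of the mutant-specific, 2.7% of the shared and 2.4% of the wild-type-specific peaks of that chromosome. What part the chromosome-wide excess in the wild-type Dex and the Dex+LPS lists has in the proliferin counts was not tested.

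The Dex peaks were at different places in the 2 wild-type libraries. In library 1 the peak (12888006 to 12888235) lay 88041 bp upstream of Prl2c3, 2.93 kb from the nearest Dex+LPS peak, which was wild-type-specific. In library 2 a peak (12899215 to 12899498) stopped 50 bp short of a shared Dex+LPS peak (12899549 to 12899748). Another peak of library 2 (12910933 to 12911172) overlapped a Dex+LPS peak by 165 bp, and that peak (12911008 to 12911207) was one listed as mutant-specific. A wild-type receptor peak under Dex thus stood at a site that the Dex+LPS lists give to the mutant alone. The last peak of library 2 (13016297 to 13016536) lay 11033 bp upstream of Prl2c2, 16.68 kb from any Dex+LPS peak. So 1 of 4 Dex peaks overlapped a Dex+LPS peak, where 25.2% and 23.2% of all peaks of these libraries did. Mutant-specific Dex+LPS peaks were overlapped by 3.9% and 3.6% of all peaks of the wild-type Dex libraries, so such overlaps also occurred elsewhere.

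Other prolactin family genes, most of them in a separate cluster of placental hormone genes on chromosome 13, had mostly wild-type-specific peaks. Of 24 such genes, 9 had wild-type-specific peaks (15 in all), 1 had a shared and 1 a mutant-specific one, and 11 had a peak of any class. Over all genes these shares were 15.4%, 4.75%, 2.72% and 17.3%. Of all Dex+LPS peaks, 18953 of 24673 were wild-type-specific, so a majority of that class is not particular to this family. The mutant peaks of the family were the shared one of Prl5a1 and the mutant-specific one of Prl7c1. Prl itself, the pituitary prolactin gene, had 4 wild-type-specific peaks. Under Dex, Prl2b1 had 1 peak in wild-type library 2. Igf2r, whose product binds proliferin at the cell surface, had no peak in any list.

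Of the 47 genes whose start in the table lies within 1 Mb of a proliferin gene, 1 had mutant-specific, 2 had shared and 5 had wild-type-specific peaks, where 2.72%, 4.75% and 15.4% of all genes did. A peak of any Dex+LPS class was found at 6 of the 47, and at 5 of the 15 that code for proteins. Lgals8, which encodes a galectin, had 1 wild-type-specific and 2 mutant-specific peaks. Lyst, a gene of lysosome trafficking, had 7 wild-type-specific and 1 shared peak. Nid1 had 6 wild-type-specific peaks. Arid4b, a chromatin factor gene, had 1 shared peak and a peak in each wild-type Dex library.

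Of 12 genes of AP-1, the partner of GR at the composite element, 10 had a Dex+LPS peak. In all, 4 had mutant-specific, 7 had shared and 7 had wild-type-specific peaks, where 2.72%, 4.75% and 15.4% of all genes did. The shares over all genes include non-coding genes, while the AP-1 genes code for proteins. Fosl1, Batf3 and Jdp2 had wild-type-specific peaks only, 3, 1 and 2 in number. Jun had 2 peaks specific to the mutant, 2 shared and 9 specific to the wild type. For Fosl2 these numbers were 2, 1 and 8, for Fos 2, 2 and 2, and for Batf 1, 2 and 0. Junb and Jund had 1 shared peak each, and Atf3 had 1 shared and 1 wild-type-specific peak. None had a peak under Dex alone.

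At least as many mutant-specific peaks as at Prl2c3 were found at A930037H05Rik and Tnc, and the next numbers below it at 3110039I08Rik, Mx2 and Gm21119. A930037H05Rik had 20 mutant-specific and no other peaks, and Mx2, an antiviral GTPase gene, had 12 with 2 wild-type-specific ones. Tnc, the tenascin-C gene of the extracellular matrix, had 15 peaks specific to the mutant, 13 shared and 22 specific to the wild type. In 3110039I08Rik the numbers were 13, 6 and 14, beside 14, 3 and 15 in Prl2c3, and in Gm21119 12, 18 and 43. Likeness here is the count in the merged lists alone.

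As a check of the cell type, 10 of 10 fibroblast markers had a Dex+LPS peak, among them Col1a1, Col1a2, Col3a1 and Pdgfra. The same held for 3 of 7 trophoblast giant cell markers (Prl3d1, Hand1 and Gcm1), 2 of 6 macrophage markers and 4 of 4 endothelial markers. Over all genes, non-coding ones included, the share was 17.3%. Peaks give no level of expression, so they neither establish the cell type nor show whether the proliferin genes were transcribed.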

How the data were processed

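GR ChIP-seq peaks of mouse embryonic fibroblasts were used. The deposited files give positions, widths and distances in base pairs on mm10, with no count, score or p-value of any peak. MACS2 2.1.0, Picard 1.119 and BWA 0.7.13 are named in the submitters' processing notes without their roles. Per the file names, Dex+LPS libraries were merged by genotype, knockout peaks were removed and the rest divided into 3 classes, and each Dex library has its own list with a false discovery rate threshold. Read depth is unknown.

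Each peak kept the gene and distance of the authors' annotation. Overlap meant at least 1 bp. The overlap and motif searches were tested on simulated data, the former against bedtools 2.31.1. Gaps are the bases between peaks. Gene totals come from RefSeq GRCm38.p6, to which 7690 of 7696, 2377 of 2380 and 1362 of 1364 genes of the lists matched (wild-type, shared, mutant). Sequences are RefSeq's. No genome was used, so motifs were searched in the 250 bases before gene starts and not in peaks. The 4 Dex libraries were tested by exact permutation. Named genes were all 4 proliferin symbols, and from the lists of other prolactin family genes, AP-1 genes and neighbours those with mutant peaks, at most 6 a list, or else those with most peaks; Prl, Prl2b1, Nid1, Gpr137b-ps and the pseudogenes were added after their values were seen. Fosl1, Batf3, Jdp2 and Atf3 were also named after their values were seen. Beside them stand the 2 genes with at least as many mutant-specific peaks as Prl2c3 and the 3 with the next lower numbers. The genes and lists were chosen with earlier results of these data known. Scripts ran on Python 3.11.15 (scipy 1.17.1, pandas 2.3.3, numpy 2.4.6, biopython, matplotlib 3.10.9).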

Additional observations from a re-analysis of the deposited data

How the results depend on the processing

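Counting any peak within 100 kb of a proliferin gene gave 19 peaks specific to the mutant, 8 shared and 32 specific to the wild type, and counting peaks within 1 kb of each other once gave 18, 8 and 24, with 20% and 25% of wild-type peaks shared and 70.4% and 69.2% of mutant peaks mutant-specific. With only peaks inside a gene body, 1 specific to the mutant, 0 shared and 6 specific to the wild type were left, 0% of wild-type peaks were shared and the single mutant peak was mutant-specific (100%), since few peaks lie inside these genes. Without Prl2c3, 5 specific to the mutant, 5 shared and 14 specific to the wild type were left by construction, the shared share of wild-type peaks was 26.3% and the mutant-specific share of mutant peaks was 50%. The Dex difference between genotypes was 2.0 peaks, and 1.0 to 3.0 with each library left out in turn. Without wild-type library 2 it was 1.0 and without wild-type library 1 it was 3.0. Per 1000 peaks of each library the difference was 2.97 (exact permutation test, p = 0.333, again the smallest possible). With the replicate block, that is, with libraries paired by replicate number, the difference was 2.0 (exact sign-flip test, p = 0.5, the smallest for 2 pairs), and whether the numbers pair the libraries could not be checked because both mutant libraries are at 0. With centres within 500 bp in place of overlap, 2 of the 4 Dex peaks matched a Dex+LPS peak. The share of all Dex peaks under that rule was not computed, so nothing is read from this count. With 1 mismatch, ACANNNTGT and TTCNNNGAA were in both proliferin promoter windows, but also in 60.3% and 65.8% of all windows. Merged lists without depth or replicates limit each Dex+LPS statement.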
